A study of Homo sapiens with 6 samples.

Results

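JAK1, JAK2, TYK2, STAT2, STAT3, STAT5B, STAT6, SOCS2 and SOCS3 were followed across 6 RNA-seq libraries of Ewing sarcoma cells treated with the CDK7 inhibitor THZ1. These 9 genes were chosen by symbol from the JAK, STAT and SOCS families, and all 9 were found once each among the 27420 genes of the deposited table. The cells were A673 and SKNMC, established lines of Ewing sarcoma, a tumour of bone and soft tissue driven by a fusion of EWS with an ETS factor, most often FLI1. Each line was exposed for 6 h to the vehicle DMSO or to THZ1 at 50 nM (the low dose) or 200 nM (the high dose), and 1 library was made per condition. Both lines were grown in the same medium with serum, and the labels name no engineered allele and no added cytokine. The design holds no replicates, so each difference within a line is one between 2 libraries, with no error to set it against. The single test given takes both lines together and treats them as replicates of a dose. Where the lines are compared, it takes the doses as replicates of a line.

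Cytokine and growth hormone receptors without kinase activity of their own are bound by kinases of the JAK family, which phosphorylate the receptor and then the STAT factors that dock on it. Phosphorylated STAT proteins pair, enter the nucleus and bind short palindromic DNA sites. Genes of the SOCS family are among their targets, and the SOCS proteins bind the receptor or the kinase and shut the signal off, so SOCS transcripts are widely read as a short-lived record of recent signalling. THZ1 binds covalently to CDK7, a kinase of the general transcription factor TFIIH that phosphorylates the C-terminal domain of RNA polymerase II. The study used the lower dose for limited and the higher dose for substantial loss of this phosphorylation.

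The authors deposited FPKM, a fragment count corrected for transcript length and library size, so levels could be compared between genes as well as between libraries. Log2 fold changes below are of FPKM with 1 added, which understates the change of genes at a few FPKM, and genes above 1 FPKM in the reference library are called active. Taken over all active genes, the median log2 fold change in A673 was -0.27 for the low dose and -0.40 for the high dose, and in SKNMC -0.32 and -0.55. FPKM is a share of a library, and a lower value from fewer cells of a kind cannot be told apart from one with less RNA per cell. Scaling to the 75th percentile of active genes moved the 4 medians of all active genes by 0.21 to 0.45, and dividing by the ribosomal protein genes moved them by -0.21 to -0.46. Each gene was therefore also set against that median, and its percentile among active genes is given. From the most frequent ratio of low values, the THZ1 libraries held about 88.5% to 96.5% of the depth of their DMSO library, an estimate on which only 1.63% to 2.77% of the low values sat. The absolute depth was unknown. All 7 Ewing sarcoma markers, CD99 and NKX2-2 among them, were active in both lines. PTPRC, a leukocyte marker, was at 7.90 to 13.1 FPKM in SKNMC and at most 0.0291 FPKM in A673, and CD3E was listed at 0 in all 6 libraries.

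All 9 genes are protein-coding (hg19 coordinates of the deposited table). The kinases are JAK1 (ENSG00000162434, chr1:65298911-65432187, minus strand), JAK2 (ENSG00000096968, chr9:4985032-5128183, plus strand) and TYK2 (ENSG00000105397, chr19:10461208-10491352, minus strand), each with 25 exons in its canonical transcript. STAT5B (ENSG00000173757, chr17:40351185-40428725) and STAT3 (ENSG00000168610, chr17:40465341-40540586) lie on the minus strand on either side of STAT5A. STAT2 (ENSG00000170581, chr12:56735380-56753939) and STAT6 (ENSG00000166888, chr12:57489190-57525922) share chromosome 12, also on the minus strand. SOCS2 (ENSG00000120833, chr12:93963589-93977263, plus strand) and SOCS3 (ENSG00000184557, chr17:76352863-76356158, minus strand) have 2 exons each. The spans ran from 3.30 kb for SOCS3 to 143 kb for JAK2, against a median of 31.7 kb over 10574 genes active in both lines. STAT6 overlaps NAB2 by 70 bases at its end and LRP1 by 3648 bases at its start, both on the other strand, and the strand setting of the counting is not given in the sources used here. NAB2 was at 27.2, 6.07 and 8.61 FPKM in A673 with DMSO, 50 nM and 200 nM, and its part in the STAT6 values was not tested.

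Promoters are shown because SOCS genes are textbook STAT targets, and for traits of TYK2, STAT6, STAT3 and SOCS3. TYK2 had a narrow range. STAT6 was lowest at 50 nM in both lines, as were TYK2, STAT2, STAT5B and SOCS3. STAT3 had the greatest difference between the DMSO libraries. SOCS3 had a log2 fold change below 0 under every scaling at both doses in A673 but not in SKNMC. RefSeq promoters (GRCh38.p14) matched 8 of the 9 genes, in 14 windows of 250 bases before an annotated start. The STAT site was searched as TTCNNNGAA and as TTCNNNNGAA, which read alike on both strands, and 0 of the 14 windows held either. Of all 35116 promoter windows 6.57% held the first and 5.38% the second. The doubled GGAA of the EWS-FLI1 motif, GGAAGGAA, and TATAAA were in 0 of the 14 windows as well, on either strand, against 3.06% and 10.7% of all windows. These letters are absent from these windows, and nothing follows about binding elsewhere. The windows are on GRCh38 and were not matched to the hg19 gene starts given above. The bases just before the SOCS3 start may therefore lie outside its windows, and its STAT sites there were not searched in that case. After those searches the GC box GGGCGG and CCAAT were added, on both strands: the first was in 6 of 14 windows, against 42.6% of all, and the second in 3 of 14, against 32.0%. Capitals mark GC boxes and CCAAT letters on either strand, 5′ to 3′ along the gene, in TYK2 (chr19:10380573-10380822, minus strand), STAT6 (chr12:57110290-57110539, minus), STAT3 (chr17:42388443-42388692, minus) and the upstream start of SOCS3 (chr17:78360926-78361175, minus).
TYK2: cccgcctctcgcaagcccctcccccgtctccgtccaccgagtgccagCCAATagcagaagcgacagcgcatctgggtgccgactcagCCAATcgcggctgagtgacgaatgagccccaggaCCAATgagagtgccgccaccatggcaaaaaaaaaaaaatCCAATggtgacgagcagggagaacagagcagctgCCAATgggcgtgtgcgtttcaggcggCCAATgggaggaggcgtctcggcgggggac
STAT6: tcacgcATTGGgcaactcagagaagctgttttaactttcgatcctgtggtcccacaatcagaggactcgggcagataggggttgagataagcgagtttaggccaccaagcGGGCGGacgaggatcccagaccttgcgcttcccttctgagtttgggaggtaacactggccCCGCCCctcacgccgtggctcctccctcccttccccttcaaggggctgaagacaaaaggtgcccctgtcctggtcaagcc
STAT3: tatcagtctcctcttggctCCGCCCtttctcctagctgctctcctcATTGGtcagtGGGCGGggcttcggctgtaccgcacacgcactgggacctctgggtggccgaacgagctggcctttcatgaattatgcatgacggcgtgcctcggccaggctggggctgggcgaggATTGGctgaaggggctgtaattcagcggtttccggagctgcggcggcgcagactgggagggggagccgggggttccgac
SOCS3: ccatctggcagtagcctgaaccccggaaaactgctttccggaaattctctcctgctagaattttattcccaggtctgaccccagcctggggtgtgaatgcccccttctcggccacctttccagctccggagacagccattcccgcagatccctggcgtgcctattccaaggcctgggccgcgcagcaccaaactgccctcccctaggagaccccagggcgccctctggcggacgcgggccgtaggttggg
TYK2 held CCAAT 6 times in its 250 bases and no GC box. Its own window included, 37 of the 35116 windows (0.105%) held CCAAT at least that often. The SOCS3 window held neither. No sequence of SOCS2 is given.

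**Figure D1:**
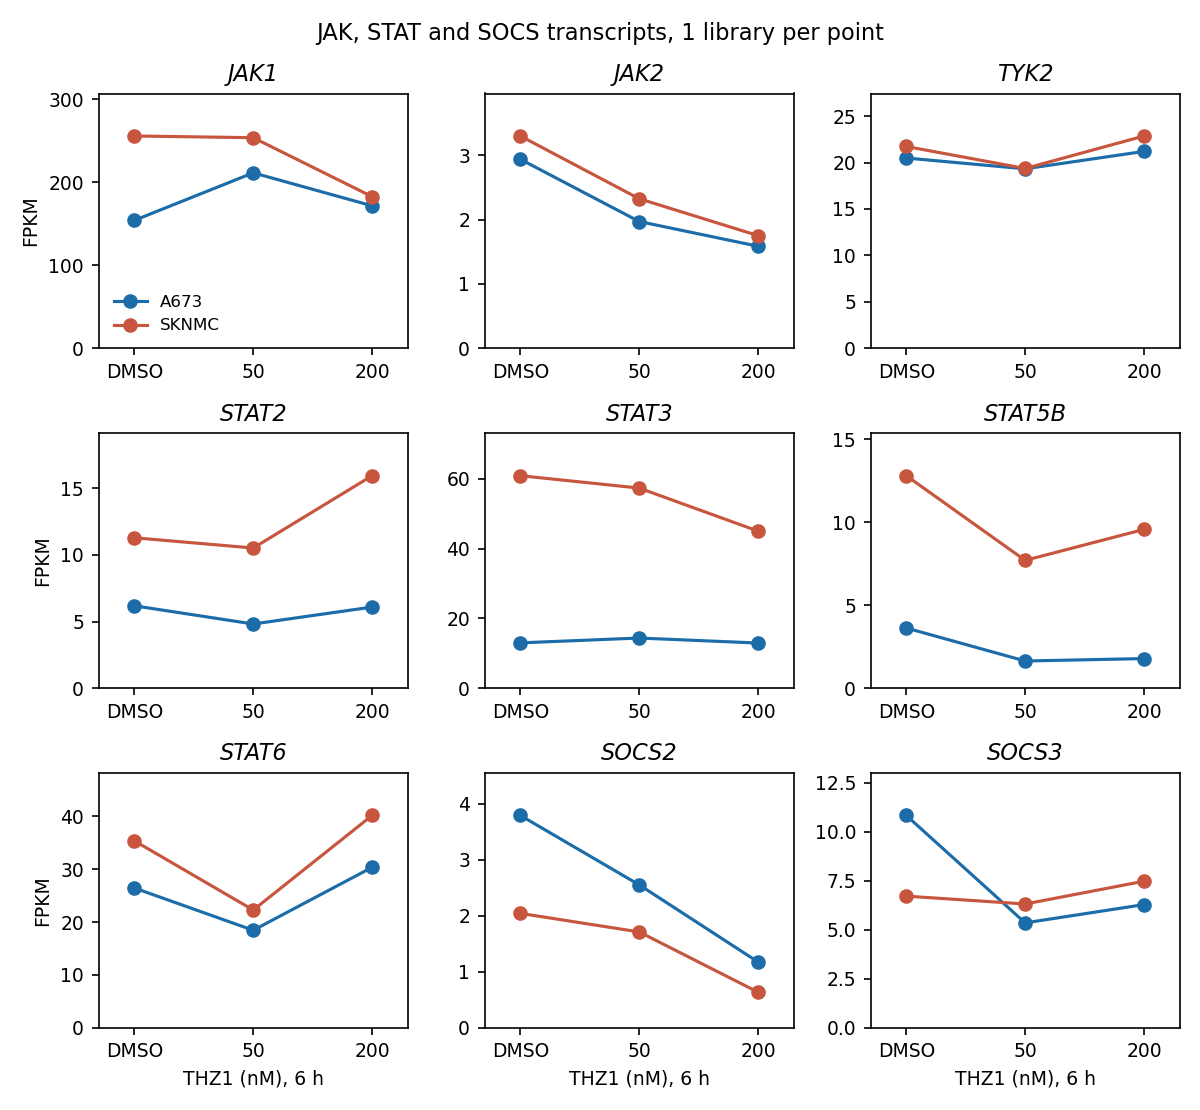
FPKM of each gene (vertical axis, from 0) against THZ1 dose (horizontal axis: DMSO, 50 nM, 200 nM; 6 h), A673 in blue and SKNMC in red; each point is 1 library, so there are no error bars. JAK2 and SOCS2 are lower at each dose step in both lines. TYK2, STAT2, STAT5B, STAT6 and SOCS3 are lowest at 50 nM in both, and STAT3 and STAT5B lie lower in A673 at every dose.

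JAK1, the kinase shared by the interferon, interleukin-6 and common gamma chain receptors, was by far the most abundant of the 9 genes in every library. It stood at 154 FPKM in A673 with DMSO, 212 FPKM at 50 nM THZ1 and 172 FPKM at 200 nM. In SKNMC it stood at 256, 254 and 183 FPKM. The 3 A673 libraries and the 3 SKNMC libraries overlapped in range, since SKNMC at 200 nM lay between the THZ1 libraries of A673. JAK1 supplied 86.8% to 92.1% of the summed FPKM of the 3 kinases in each of the 6 libraries. At 50 nM in A673 its log2 fold change was 0.45, at percentile 96.4 of the active genes, and it stayed above 0 under the 3 other scalings, between 0.22 and 0.69. Its other 3 differences from DMSO changed sign with the scaling of the libraries. Set against the median of all active genes, JAK1 was above it in all 4 comparisons with DMSO, by 0.73 and 0.55 in A673 and by 0.31 and 0.06 in SKNMC. The last of these turned with the ribosomal protein scaling, where JAK1 was at -1.07 and the median at -1.01.

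JAK2, the kinase of the erythropoietin, growth hormone and thrombopoietin receptors, was near the lower end of the active genes and was lower at each dose step in both lines. It was at 2.94, 1.97 and 1.59 FPKM in A673 with DMSO, 50 nM and 200 nM, and at 3.30, 2.32 and 1.75 FPKM in SKNMC. In each line the DMSO library was the highest and the 200 nM library the lowest. The 200 nM libraries held 54.0% and 53.1% of the DMSO level in A673 and SKNMC, log2 fold changes of -0.61 and -0.64 that did not reach 2-fold. JAK2 was below its DMSO level in all 4 comparisons under every scaling. It nevertheless stayed close to the typical active gene, at percentiles 40.1 to 46.8 of the 4 distributions.

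TYK2, a kinase of the type I interferon receptor and the interleukin-12 receptor family, was at 20.5, 19.3 and 21.2 FPKM in A673 and at 21.7, 19.4 and 22.9 FPKM in SKNMC. All 6 libraries lay within this narrow band and the lines overlapped. Its log2 fold changes against DMSO ran from -0.16 to 0.07, and their signs depended on the scaling. The JAK1 to JAK2 ratio of FPKM was 52.6 in A673 with DMSO and 107 and 108 with THZ1, and 77.6, 109 and 104 in SKNMC. A ratio within a library does not depend on the scaling, and this one was higher with THZ1 at both doses in both lines. JAK2 overlaps a protein-coding gene on the other strand by 7419 bases, AL161450.1, which is listed at 0 in all 6 libraries.

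**Figure D2:**
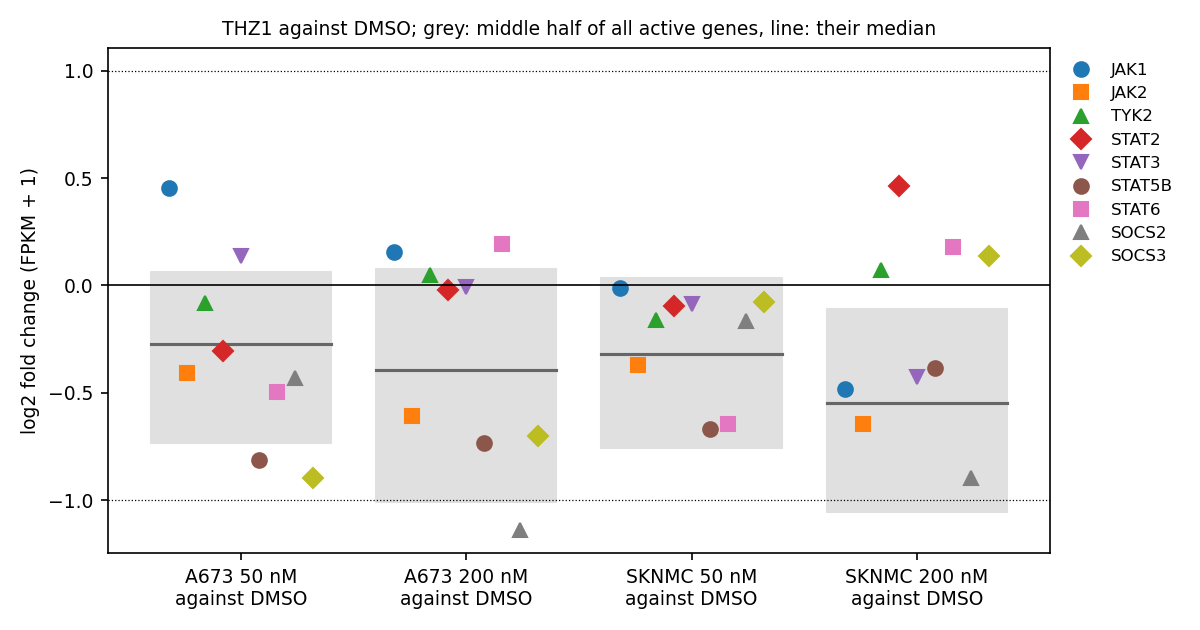
Log2 fold change of each of the 9 genes against the DMSO library of its line (FPKM with 1 added), in 4 comparisons, with the median of all active genes as a grey line, their interquartile range as a grey box and the 2-fold threshold dotted; each mark is a difference between 2 libraries, without an error. SOCS2 at 200 nM in A673 (-1.14) is the single mark past the threshold, and JAK2 is below 0 in all 4.

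Among the STAT genes, STAT3 and STAT5B differed most between the lines. STAT3, the factor downstream of gp130 cytokines, was at 13.0, 14.4 and 12.9 FPKM in A673 and at 60.9, 57.4 and 45.0 FPKM in SKNMC. Every A673 library lay below every SKNMC library. The log2 fold changes against DMSO were 0.14 and -0.01 in A673, and -0.09 and -0.43 in SKNMC. The sign of each of these 4 differences depended on the scaling, and STAT3 was above the median of all active genes in all 4.

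STAT5B, which carries growth hormone and interleukin-2 signals, was at 3.62, 1.63 and 1.78 FPKM in A673 and at 12.8, 7.70 and 9.56 FPKM in SKNMC. The lines did not overlap, and in both the DMSO library was the highest. At 50 nM the level was 45.1% of DMSO in A673 and 60.1% in SKNMC. With 1 added to FPKM the log2 fold change in A673 was -0.81, short of the 2-fold threshold that the FPKM ratio itself passed. The high dose gave -0.73 and -0.39. STAT5B was lower than with DMSO under every scaling except in SKNMC at 200 nM, where the range was -0.91 to 0.11. STAT5A, its neighbour and close paralogue, was between 0.0427 and 0.130 FPKM in all 6 libraries, so the pair was represented by STAT5B alone above 1 FPKM. Reads shared between the paralogues may have been split in a way that the FPKM values do not show.

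STAT6, the factor of interleukin-4 and interleukin-13 signalling, was below DMSO at the low dose and above it at the high dose in both lines. It was at 26.4, 18.4 and 30.4 FPKM in A673 and at 35.4, 22.3 and 40.2 FPKM in SKNMC. In each line the 50 nM library was the lowest of the 3 and the 200 nM library the highest. At 50 nM the log2 fold changes were -0.50 and -0.64, below 0 under every scaling. At 200 nM they were 0.19 and 0.18, and turned negative with the ribosomal protein scaling. LRP1, whose 5′ end overlaps STAT6 on the other strand, was at 1.36, 2.05 and 2.19 FPKM in A673 and at 4.25, 5.50 and 9.22 FPKM in SKNMC, so it was higher at both doses. The part of LRP1 in the STAT6 values was not tested.

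STAT2, a STAT of the type I interferon response that works with IRF9, was at 6.18, 4.81 and 6.09 FPKM in A673 and at 11.3, 10.5 and 15.9 FPKM in SKNMC. All SKNMC libraries lay above all A673 libraries. At 200 nM in SKNMC its log2 fold change of 0.46 was at percentile 95.6 of the active genes and 1.01 above their median, but -0.08 with the ribosomal protein scaling. The same dose in A673 gave -0.02.

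The SOCS genes are the feedback inhibitors of the pathway. SOCS2, which restrains growth hormone signalling, was the lowest of the 9 in 4 of the 6 libraries. It was at 3.79, 2.55 and 1.17 FPKM in A673 and at 2.04, 1.71 and 0.636 FPKM in SKNMC. The order was DMSO, 50 nM, 200 nM from the highest to the lowest in each line. At 200 nM the level was 31.0% of DMSO in A673 and 31.1% in SKNMC, and the log2 fold changes were -1.14 and -0.90. With 0.1 added in place of 1 they were -1.61 and -1.54, so the added value decided whether SKNMC passed 2-fold. SOCS2 was below DMSO at 200 nM under every scaling, but with the 75th percentile A673 was at -0.89, short of 2-fold.

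SOCS3, the inhibitor that binds gp130 and JAK and is a standard STAT3 target, had different dose profiles in the 2 lines. It was at 10.8, 5.35 and 6.29 FPKM in A673 and at 6.72, 6.32 and 7.48 FPKM in SKNMC. In A673 both THZ1 libraries lay below DMSO, at 49.4% and 58.0% of its level, while the 3 SKNMC libraries lay close together. The log2 fold changes were -0.90 and -0.70 in A673, below 0 under every scaling. They were -0.08 and 0.14 in SKNMC, and these changed sign with the scaling. Without replicates the contrast of the 2 profiles was not tested.

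Against this per-gene account, few of the 9 genes passed a 2-fold threshold. At 50 nM in A673, 0 of the 9 were decreased 2-fold, where 15.9% of all active genes were, and 0 were increased, where 0.343% were. At 200 nM in A673, 1 of the 9, SOCS2, was decreased, against 25.3% of all active genes, and 0 were increased, against 0.126%. In SKNMC at 50 nM the counts were 0 decreased, against 15.8%, and 0 increased, against 0.471%. In SKNMC at 200 nM they were 0 decreased, against 27.3%, and 0 increased, against 0.462%. Both doses of a line were compared with the same DMSO library. With a 1.5-fold threshold, 2 of the 9 were decreased in A673 at 50 nM (31.8% of all active genes), 4 at 200 nM (41.1%), and 2 at each dose in SKNMC (33.5% and 48.0%). At that threshold 0 of the 9 were increased in any of the 4 comparisons, where 1.78%, 1.70%, 2.43% and 2.81% of all active genes were. The 9 log2 fold changes had medians of -0.41 and -0.02 in A673 for the low and the high dose, and of -0.16 and -0.39 in SKNMC. It was below the median of all active genes (-0.27) at 50 nM in A673 and above it in the other 3 comparisons (-0.40, -0.32 and -0.55).

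**Figure D3:**
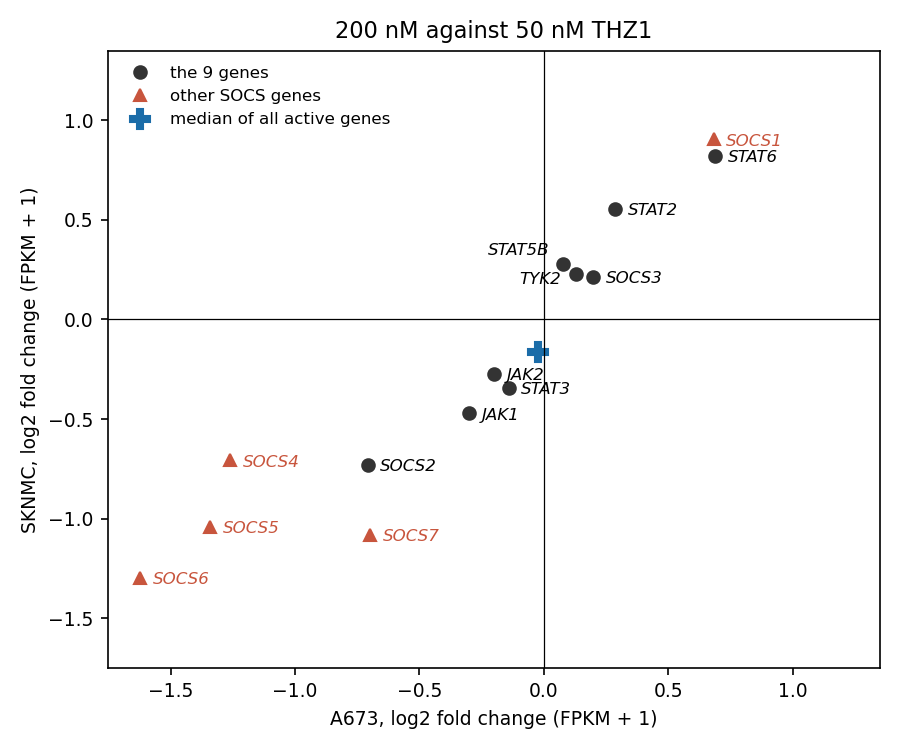
Log2 fold change of 200 nM against 50 nM THZ1 for each of the 9 genes, A673 on the horizontal and SKNMC on the vertical axis, with black circles for the 9, red triangles for other SOCS genes and a blue cross for the median of all active genes; each point is 1 gene, without error bars. The black circles lie in the upper right and lower left quadrants, with STAT6 at 0.69 and 0.82 at one end and SOCS2 at -0.71 and -0.73 at the other.

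The step from 50 nM to 200 nM was compared within each line, without the DMSO libraries, and no library is shared between the lines in this comparison. STAT6 had the highest difference of the 9, with a log2 fold change of 0.69 in A673 and 0.82 in SKNMC, at percentiles 98.9 and 99.0 of the active genes. It was above 0 under every scaling, from 0.57 to 0.79 in A673 and from 0.57 to 1.08 in SKNMC. SOCS2 lay at the other end, at -0.71 and -0.73, also below 0 under every scaling. STAT2 was higher at the high dose in both lines, at 0.29 and 0.56, and JAK1 was lower, at -0.30 and -0.47. JAK2, at -0.20 and -0.27, and STAT3, at -0.14 and -0.34, were lower in both lines, and STAT5B, at 0.08 and 0.28, was higher. These signs held under every scaling, although STAT5B in A673 was only at 0.0014 with the ribosomal protein scaling. TYK2 and SOCS3, higher in both lines by at most 0.23, changed sign in SKNMC with that scaling.

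All 9 genes thus stood on the same side in both lines, 5 higher and 4 lower at 200 nM than at 50 nM, where 76.3% of 9716 active genes had the same sign in both lines. With the ribosomal protein scaling it was 7 of 9 against 73.7%. Against DMSO, 7 of the 9 had the same sign in both lines at 50 nM and 6 at 200 nM. The shares of 10574 active genes were 84.8% and 81.3%, so the 9 did not exceed all genes there. The count at 200 nM was 9 of 9 with the ribosomal protein scaling, all of them lower than with DMSO. Under that scaling 9519 of the 10574 active genes had the same sign in both lines. In A673, 0 of the 9 passed 2-fold from 50 nM to 200 nM in either direction, against 7.97% of all active genes decreased and 0.134% increased. In SKNMC it was also 0, against 9.09% and 0.362%. At 1.5-fold, 1 of the 9 was decreased, SOCS2, and 1 increased, STAT6, in each line, where 19.1% and 2.32% of all active genes were decreased and increased in A673, and 23.8% and 3.66% in SKNMC.

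**Figure D4:**
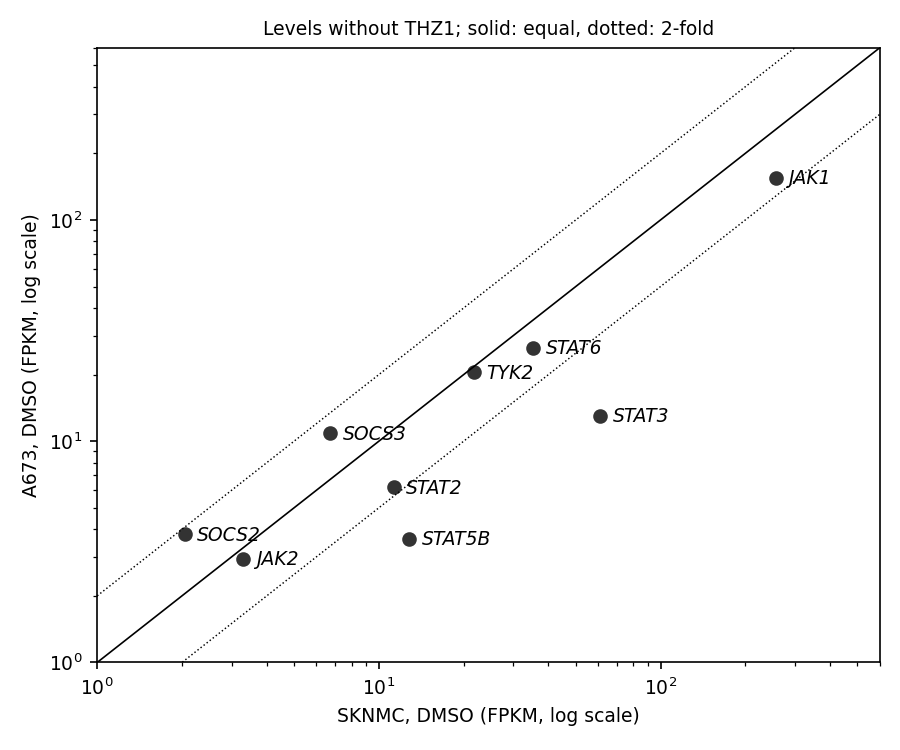
FPKM with DMSO in SKNMC (horizontal axis) and A673 (vertical axis), both on log scales, 1 point for each of the 9 genes, with lines of equality and of 2-fold difference. STAT3 (60.9 against 13.0 FPKM) and STAT5B (12.8 against 3.62 FPKM) lie beyond 2-fold on the side of SKNMC, and SOCS2 and SOCS3 lie above equality.

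Between the untreated lines, STAT3 and STAT5B stood furthest apart. Of the 9 genes, 2 were at least 2-fold lower in A673 than in SKNMC with DMSO, STAT3 at -2.15 and STAT5B at -1.58, where 8.96% of 10574 genes active in both were. None of the 9 (0) was 2-fold higher, where 6.93% were. At 1.5-fold, JAK1 (-0.73) and STAT2 (-0.78) joined the lower group, making 4 of 9 (20.1% of all genes), and SOCS2 (0.65) and SOCS3 (0.62) were the 2 higher ones (16.7%). These 6 signs held under every scaling, while those of JAK2, TYK2 and STAT6 (-0.13, -0.08 and -0.41) did not. At 200 nM, 3 of the 9 were 2-fold lower in A673, STAT2 at -1.26, STAT3 at -1.72 and STAT5B at -1.93, against 8.19% of all genes, and 0 were higher, against 11.1%. With the ribosomal protein scaling STAT2 was at -0.63 and the count was 2, against 2.75% of all genes. The 1.5-fold counts at this dose were also 3 lower and 0 higher, against 19.5% and 23.4%. The SOCS3 difference of 0.62 with DMSO was -0.22 at 200 nM and took either sign with the scaling there. SKNMC carried PTPRC at 7.90 to 13.1 FPKM and A673 did not, and a part of other cells in the STAT3 and STAT5B difference was not tested.

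Both lines were then entered in 1 linear model (limma) of log2(FPKM + 1) with dose and cell line as additive terms, fitted to 10574 genes active in both DMSO libraries and added after the values were seen. It treats the lines as replicates of a dose, leaves 2 residual degrees of freedom, and counts any difference in response between the lines as error. For the difference between the lines, it takes the doses as replicates of a line. SOCS2 was lower at 200 nM than with DMSO by a log2 fold change of -1.02 ± 0.17 (SE; limma adjusted p = 0.00035), and lower than at 50 nM by -0.72 ± 0.17 (adjusted p = 0.0095). STAT6 was lower at 50 nM than with DMSO, at -0.57 ± 0.14 (adjusted p = 0.0075), and higher at 200 nM than at 50 nM, at 0.76 ± 0.14 (adjusted p = 0.0025). The 2 values of SOCS2 and the dose step of STAT6 stayed under 0.05 with each of the 3 scalings, the latter at most at adjusted p = 0.041 with the ribosomal protein genes. STAT5B was lower at both doses, at -0.74 ± 0.18 (adjusted p = 0.0061) and -0.56 ± 0.18 (adjusted p = 0.018), and JAK2 at 200 nM, at -0.63 ± 0.17 (adjusted p = 0.0074). Those values and that of STAT6 at 50 nM were lost with the 75th percentile, where the adjusted p of STAT5B was 0.060 and 0.44, of JAK2 0.13 and of STAT6 0.068.

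In all, 2 of the 9 genes passed at 50 nM against DMSO (43.6% of all genes tested), 3 at 200 nM (58.8%) and 2 in the dose step (26.5%). The genes called at 50 nM were 4073 lower and 541 higher, and 2729 and 1808 with the 75th percentile. At 200 nM they were 5573 and 643, and 3518 and 2482. In the dose step they were 2449 and 356, and 1822 and 1581. Between the lines, 6 of 9 passed over the 3 doses (60.7% of all genes, 3294 lower and 3121 higher in A673, and 1200 and 5817 with the ribosomal protein genes). Here the 3 libraries of a line, 1 per dose, served as its replicates. The SEs and p-values that follow therefore do not measure the spread between cultures of a line at the same dose. STAT3 was lower in A673 by a log2 fold change of -1.93 ± 0.13 (SE; limma adjusted p = 2.5e-07), STAT5B by -1.74 ± 0.15 (adjusted p = 1.7e-06) and STAT2 by -1.01 ± 0.15 (adjusted p = 0.00013), and SOCS2 was higher by 0.48 ± 0.14 (adjusted p = 0.011). These 4 passed with each scaling. JAK1 (-0.36) and STAT6 (-0.35) also passed, but turned to 0.20 and 0.19 with the ribosomal protein scaling and then missed the threshold. The SOCS3 difference was 0.06 ± 0.18 (adjusted p = 0.77). With the ribosomal protein scaling, SOCS3 (0.56, limma adjusted p = 0.0043) and TYK2 (0.48, adjusted p = 0.017) passed as higher in A673, in place of JAK1 and STAT6.

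By level, JAK1 came first in each of the 6 libraries. With DMSO in SKNMC it was followed by STAT3, STAT6, TYK2, STAT5B, STAT2, SOCS3, JAK2 and SOCS2. In A673 with DMSO, STAT6 (26.4 FPKM) and TYK2 (20.5 FPKM) stood above STAT3 (13.0 FPKM). SOCS3 (10.8 FPKM) there stood above STAT2 (6.18 FPKM), SOCS2 (3.79 FPKM), STAT5B (3.62 FPKM) and JAK2 (2.94 FPKM). Without replicates, neighbours in these orders, such as SOCS2 and STAT5B in A673, could not be separated from their spread. The ratio of SOCS3 to SOCS2 FPKM was 2.86, 2.10 and 5.36 in A673 and 3.29, 3.69 and 11.8 in SKNMC, highest at 200 nM in both.

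The other genes of the pathway were taken from lists of 100 symbols, of which 99 were found. Among the other SOCS genes, SOCS5 was at 11.3, 19.4 and 7.05 FPKM in A673 and at 12.0, 20.5 and 9.43 FPKM in SKNMC, so the 50 nM library was the highest in each line. SOCS6 had the same shape, at 6.91, 12.4 and 3.35 FPKM in A673 and 8.19, 14.7 and 5.38 FPKM in SKNMC. This shape is the reverse of that of STAT6. From 50 to 200 nM, 3 of 5 active other SOCS genes were decreased 2-fold in A673, where 7.97% of all active genes were, and 3 of 5 in SKNMC, where 9.09% were, SOCS5 and SOCS6 in both, with SOCS4 in A673 and SOCS7 in SKNMC. SOCS4 was lower at each dose step, at 22.2, 15.1 and 5.71 FPKM in A673 and 11.8, 6.71 and 3.72 FPKM in SKNMC. SOCS1, an inhibitor of JAK kinase activity, was at 1.71, 1.77 and 3.45 FPKM and at 1.15, 1.22 and 3.15 FPKM, so it was highest at 200 nM in both lines. Of the 5 active other SOCS genes in A673, 0 passed 2-fold downwards at the low dose and 1 at the high dose, as did 0 and 1 of 6 in SKNMC. The shares of all active genes were 15.9% and 25.3% in A673, and 15.8% and 27.3% in SKNMC.

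**Figure D5:**
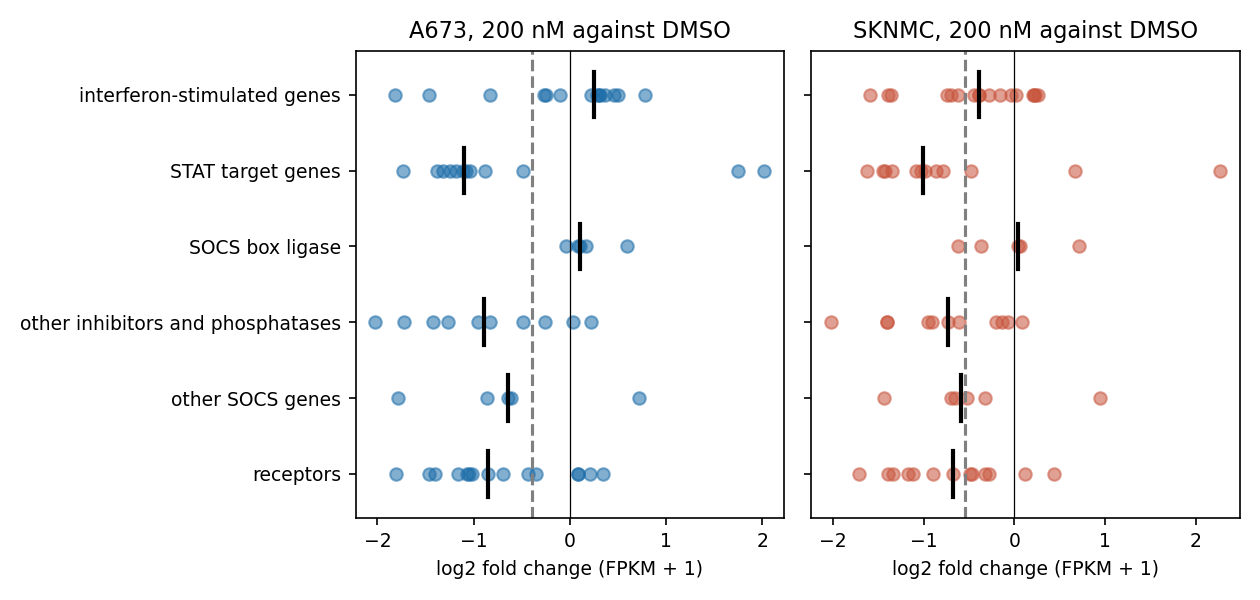
Log2 fold change of 200 nM THZ1 against DMSO (horizontal axis, FPKM with 1 added) for the active genes of 6 pathway lists in A673 (left) and SKNMC (right), 1 point per gene, with each list's median as a short black bar and the median of all active genes (-0.40 and -0.55) as a dashed line. The medians of the STAT target genes lie at -1.10 and -1.01, and those of the SOCS box ligase at 0.10 and 0.04.

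Of the cytokine receptor genes, 6 of 15 active in A673 were decreased 2-fold at the low dose and 7 of 15 at the high dose. In SKNMC it was 3 and 5 of 13, and 0 were increased in either line. Of all active genes, 15.9% and 25.3% were decreased in A673, and 15.8% and 27.3% in SKNMC. Increased were 0.343% and 0.126% in A673, and 0.471% and 0.462% in SKNMC. IFNAR1, a chain of the type I interferon receptor, was at 28.5, 11.1 and 12.2 FPKM in A673 and at 28.7, 9.13 and 8.09 FPKM in SKNMC. IFNGR1, the ligand-binding chain for interferon gamma, was lower mainly at 200 nM, with log2 fold changes of -1.40 in A673 and -1.34 in SKNMC. At the upper end of the receptors were IL13RA1, at 0.34 and -0.49 at 200 nM, and IL11RA, at 0.21 and 0.12. Of the kinases, 0 of 3 passed 2-fold, and 3 genes are too few to set against these shares. Of the 4 active ligand genes in each line, 0 and 0 were decreased in A673 and 1 and 2 in SKNMC, and 1 was increased in A673 at 50 nM. CSF1, the macrophage growth factor, was at most 3.42 FPKM in any library.

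STAT target genes were split. Of 12 active in A673, 1 was decreased 2-fold at the low dose and 8 at the high dose, while 1 and 2 were increased. Of 12 in SKNMC, 2 and 6 were decreased and 1 and 1 increased. Among all active genes, 15.9% and 25.3% were decreased in A673 and 15.8% and 27.3% in SKNMC. Increased were 0.343% and 0.126% in A673, and 0.471% and 0.462% in SKNMC. JUNB, an AP-1 subunit of the immediate early response, had log2 fold changes of 1.55 and 2.02 in A673 and 1.56 and 2.27 in SKNMC. FOS, its partner, was at 8.54, 17.1 and 31.1 FPKM in A673 and at 14.0, 18.9 and 22.8 FPKM in SKNMC. BCL2L1, a survival gene, was at -1.74 and -1.45 at 200 nM in A673 and SKNMC, and CEBPD at -1.24 and -1.63. SOCS3, itself such a target, shared neither pattern in SKNMC. Of the interferon-stimulated genes, 2 of 14 active were decreased at each dose in A673 and 3 of 17 at each dose in SKNMC, with 0 increased. IRF9, the DNA-binding partner of STAT2, was at 5.85, 1.17 and 0.943 FPKM in A673 and at 5.20, 1.27 and 1.36 FPKM in SKNMC, whereas STAT2 itself kept 77.9% or more of its DMSO level in every THZ1 library. IFIT3 was at -1.46 and -1.60 at 200 nM, while IFITM3 was at 0.46 and 0.23 and IFI6 at 0.78 and 0.22.

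Of the other inhibitors and phosphatases, 0 of 10 active in A673 were decreased at the low dose and 4 at the high dose, as were 0 and 3 of 11 in SKNMC. For these and the next 2 lists, the decreased shares of all active genes were 15.9% and 25.3% in A673, and 15.8% and 27.3% in SKNMC. SH2B3, an adaptor that restrains JAK2, was at 75.3, 63.6 and 27.4 FPKM in A673 and at 59.0, 39.7 and 13.7 FPKM in SKNMC. PIAS1, which inhibits STAT binding to DNA, was at 13.0, 10.3 and 2.44 FPKM and at 17.7, 14.9 and 6.03 FPKM. The phosphatases PTPN11 and PTPRA lay between -0.21 and 0.23 in all 4 comparisons. The SOCS box ligase, through which SOCS proteins mark their targets for degradation, had 0 of 5 genes past 2-fold in any of the 4 comparisons. TCEB2 of this ligase, the elongin B subunit, was at 0.59 and 0.72 at 200 nM. As a reference for these cells, 1 and 3 of 7 Ewing sarcoma markers were decreased in A673 and 3 and 5 in SKNMC. NR0B1, a target of EWS-FLI1, was at 58.6, 17.6 and 7.97 FPKM in A673, and NKX2-2 was at -1.78 and -1.64 at 200 nM. At that dose CD99 and PRKCB were at 0.60 and 0.41 in A673, and at 0.14 and -0.11 in SKNMC.

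The genes with the most similar pattern over the 6 libraries were found by the root mean square distance of log2(FPKM + 1) values, each centred on its own mean, among 9325 genes above 1 FPKM in all libraries. The nearest gene was CUL7 for TYK2 (0.0331), MRPL2 for JAK2 (0.0540), HSD17B11 for STAT3 (0.0567) and CDK10 for SOCS3 (0.0669). For SOCS2 it was TPBG (0.0742), for JAK1 PPP1CB (0.0772), for STAT2 CCDC14 (0.0801), for STAT6 TMTC2 (0.0953) and for STAT5B PIP4K2B (0.107). The median distance to all genes ran from 0.428 for JAK2 to 1.05 for STAT3. The members themselves were left out of the genes searched. The closest pair within the 9 was TYK2 and SOCS3, at 0.270, further apart than any member and its nearest gene. The 6 points of each pattern share the library scaling of their column.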

How the data were processed

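RNA-seq libraries of A673 and SKNMC cells (6, with 1 per condition) were grouped by their labels. Reads (TruSeq, paired-end, 100 bp) were aligned by the authors with STAR to hg19, using Ensembl 75, and FPKM was deposited per gene. The methods name StringTie for FPKM, while the submitters' processing notes name Cufflinks, and versions and strand setting are not given in the sources used here. The deposited table's title speaks of averages, although the labels give 1 library per condition. The authors also deposited 4 columns of log2 fold changes of THZ1 against DMSO, which were not used.

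From FPKM, log2 fold changes with a pseudocount of 1 were computed in Python 3.11.15 (numpy 2.4.6, pandas 2.3.3) for genes above 1 FPKM in the reference library, or in both for the comparisons of lines. A gene was called at 2-fold. No test within a line could be made from 1 library per condition. After the values were seen, limma 3.58.1 (trended variance, R 4.3.3, Benjamini-Hochberg adjustment over all genes) was fitted to both lines with line as a block. The steps were tested on simulated data. Alternatives were a pseudocount of 0.1, 3 scalings (common sum, 75th percentile, 85 ribosomal protein genes), other filters on low values, protein-coding genes alone and a 1.5-fold threshold. Genes named from a list were the 2 lowest and 2 highest by log2 fold change at 200 nM summed over the lines, among genes active in both, and others are named where they bear on a member. Some genes that this rule names are not reported here. The members, lists and rules were chosen with earlier results of these data known, and the GC box and CCAAT after the first motifs were searched. Absolute depth is unknown, so no interval for counting error is given.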

Additional observations from a re-analysis of the deposited data

Results flagged for a closer look

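A gene was singled out where its log2 fold change had opposite signs in the 2 lines at both doses. None of these was tested, as each condition has 1 library, and an additive model of both lines takes such a difference as error. JAK1 was at 0.45 and 0.15 in A673 at 50 and 200 nM, and at -0.012 and -0.48 in SKNMC. The -0.012 was 0.0037 with the common sum and 0.26 with the 75th percentile, so the opposite signs were lost there. IL13RA1, a chain of the interleukin-13 receptor that signals through STAT6, was at 0.084 and 0.34 in A673 and at -0.48 and -0.49 in SKNMC. PRKCB, an Ewing sarcoma marker, was at 0.089 and 0.41 in A673 and at -0.16 and -0.11 in SKNMC. The 75th percentile moved the SKNMC medians of all active genes by 0.24 at 50 nM and 0.45 at 200 nM. Both shifts exceed the distance of the PRKCB values from 0. Of 77 genes looked at, 4 had this pattern, as had 557 of the 10574 genes active in both lines. The other was OAS3, an interferon-stimulated gene outside the naming rule and named after its values were seen. It was at 0.05 and 0.31 in A673 and at -0.32 and -0.39 in SKNMC. Signs of IL13RA1, PRKCB and OAS3 under the other scalings are not given, and their opposite signs may be lost there too.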

How the results depend on the processing

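The labels give no replicate numbers, so no block of replicates was fitted. In the added model with cell line as a block, the number of the 9 genes called was 2 at 50 nM against DMSO. It was 1 with the 75th percentile and 5 with the ribosomal protein genes. The shares of all genes tested were 43.6%, 42.9% and 56.6%. At 200 nM the number was 3, and 4 with the 75th percentile and 6 with the ribosomal protein genes. The shares of all genes there were 58.8%, 56.7% and 76.9%. The genes called also changed with the 75th percentile. The 1 called at 50 nM was then JAK1, higher than with DMSO (0.48, limma adjusted p = 0.013). Of the 4 at 200 nM, STAT6 (0.61), TYK2 (0.48) and STAT2 (0.62) were higher and SOCS2 (-0.76) was lower.

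For the count of the 9 genes decreased 2-fold against DMSO, a pseudocount of 0.1 gave 2 in A673 at 50 nM and 1 in SKNMC at 200 nM. The share of all active genes was not computed with that pseudocount. The ribosomal protein scaling gave 2 and 3 in A673, where 23.5% and 37.0% of all active genes were decreased. At the high dose it gave 3 in SKNMC, against 50.6%. The 75th percentile gave 0 in A673 at 200 nM, against 16.6%. A 1.5-fold threshold gave 2 and 4 in A673 (31.8% and 41.1%) and 2 and 2 in SKNMC (33.5% and 48.0%). For 200 nM against 50 nM, a pseudocount of 0.1 or a 1.5-fold threshold gave 1 decreased gene in each line. At 1.5-fold, 19.1% of all active genes were decreased in A673 and 23.8% in SKNMC. The 1.5-fold threshold gave 1 increased in each line, against 2.32% and 3.66%. The 75th percentile gave 1 increased in SKNMC, against 1.55%. For A673 against SKNMC with DMSO, the 1.5-fold threshold gave 4 lower (20.1% of all genes) and 2 higher (16.7%). The ribosomal protein scaling gave 2 higher at 2-fold, against 17.1%.

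With no filter on low values, the share of all genes decreased was 6.41% and 10.2% in A673 and 6.84% and 11.8% in SKNMC at 50 and 200 nM, and 3.03% and 3.67% for 200 nM against 50 nM. The share increased was then 0.252% in A673 at 200 nM, 0.299% in SKNMC at 50 nM, and 3.81% and 5.27% between the lines with DMSO and at 200 nM. With genes above 10 FPKM the share increased was 0.210% and 0.0751% in A673, 0.200% in SKNMC at 200 nM, and 0.0180% and 0.103% for the dose step. The share lower in A673 was then 3.81% with DMSO and 4.29% at 200 nM. These filters change which genes enter the share. Of 36 differences of the 9 genes from DMSO, the sign changed for 0 with a pseudocount of 0.1, 1 with the common sum, 12 with the 75th percentile and 8 with the ribosomal protein genes. Without replicates or counts, differences of genes near 1 FPKM such as JAK2 and SOCS2 have no known precision.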
